A study of Mus musculus with 502 samples.

Results

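Cirbp and Rbm3 encode the best known cold-inducible RNA binding proteins of mammals, and the 2 genes were followed here through kidney immune cells stored in the cold. They were chosen by name, as 2 of the 46603 gene rows of the count table, and both rows held reads. The cells came from kidneys of CD1 wild type mice, an outbred stock, about 3 weeks old. Fresh kidneys were dissociated at once, and the others were kept whole in HTS-FRS, an organ preservation solution, at 4 °C for 6 h or for 1, 2, 3 or 4 days before dissociation. All cells, fresh ones included, passed a digestion of 20 min at 37 °C and a sort for singlets that excluded propidium iodide and carried surface Cd45, the pan-leukocyte marker. Kidneys of a single mouse were pooled per timepoint, whole up to day 2 and in part for day 3 and day 4, and no label names the mouse of a cell.

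The label of a cell holds a number that was read as that of its library pool, named A, B or C here. In pool A there were 75 fresh cells, 76 stored for 6 h, 78 for 2 days and 2 for 4 days. In pool B there were 81 fresh cells, 75 stored for 1 day, 82 for 3 days and 19 for 4 days, and pool C had 14 cells stored for 4 days. Preserved cells were compared with the fresh cells of their own pool, and the 2 fresh sets with each other, which gives the gap between 2 sets of 1 condition. No label ties a cell to an animal, so each timepoint was treated as 1 sample and there was no test. Intervals are at the 95% level. Those of shares cover the sampling of cells only, and not the spread between mice or dissociations. Those of sums cover the counting of reads only. Reads carry no molecular identifiers and are not independent molecules, so the intervals of sums may be too narrow even for that. Whether intervals overlap is therefore a description of the cells at hand and not a test of preservation.

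CIRBP and RBM3 are small proteins with an RNA recognition motif followed by a glycine-rich tail. Their transcripts accumulate in many mammalian cells under mild cooling, whereas deep cold slows transcription in general. RBM3 is known to favour translation and to protect neurons in the cold, and CIRBP binds transcripts of stress and clock genes. CIRBP released from injured cells acts as a danger signal on myeloid cells through TLR4 and TREM1.

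The first 90 coding bases of both genes are printed to show how alike, and how separable, the 2 transcripts are. Cirbp (ENSMUSG00000045193.13, GRCm38, chr10:80165985-80172786, plus strand) and Rbm3 (ENSMUSG00000031167.16, chrX:8138975-8145880, minus strand) are taken from GENCODE. The transcripts shown have 516 coding bases for Cirbp and 462 for Rbm3. Capitals mark the bases that differ.
Cirbp: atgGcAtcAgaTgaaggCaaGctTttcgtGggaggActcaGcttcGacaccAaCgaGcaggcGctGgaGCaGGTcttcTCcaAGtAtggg
Rbm3: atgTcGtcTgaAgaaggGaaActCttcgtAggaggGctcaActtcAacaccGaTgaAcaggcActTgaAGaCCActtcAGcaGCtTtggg
In this stretch, which opens the RNA recognition motif, 64 of 90 bases were the same (71.1%), and the longest run shared by the 2 coding sequences was 11 bases. Reads of 75 bases within the coding sequences could therefore tell the genes apart, and the untranslated parts of the 2 were not compared. None of the 1247 windows of 75 bases of the Cirbp transcript occurred in a transcript of a gene other than these 2. For Rbm3, 316 of 2718 windows (11.6%) also occurred in other genes, mainly processed pseudogenes, so its counts carry that uncertainty. Gm10156, one of those pseudogenes, had 400 reads, and each cell with one of them also held reads of Rbm3, whereas Gm13624 had 2 reads. Phospho2, which shares windows with it through a noncoding transcript, had 10588 reads in 60 cells, 45 of them with Rbm3. The antisense gene Rbm3os overlaps Rbm3 at 94 exonic bases (2.00%) and was read in 16 cells, 15 of them with Rbm3, and unstranded counting cannot tell the 2 apart within the overlap.

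The RefSeq table of promoters held Cirbp but not Rbm3. A stretch of the first Cirbp promoter, upstream of the first exon annotated there (GRCm38.p6, chr10:80167589-80167777, plus strand), is shown because it holds the sequence described as a mild cold response element, TCCCCGCC, here in capitals with the GC boxes, GGGCGG, that Sp1 binds.
Cirbp promoter: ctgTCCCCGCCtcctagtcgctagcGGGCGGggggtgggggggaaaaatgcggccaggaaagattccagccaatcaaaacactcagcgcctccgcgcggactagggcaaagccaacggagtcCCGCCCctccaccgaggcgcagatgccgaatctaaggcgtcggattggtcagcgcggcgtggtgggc
Searched on both strands, the stretch held 1 cold element and 2 GC boxes, with no overlap between them. The cold element occurred in 5.38% of 32851 promoter windows and the GC box in 35.7%, so neither is rare. A second Cirbp promoter window of the table, not shown, held 4 GC boxes and no cold element. These are matches of letters only.

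Over all 502 cells, Rbm3 was the more widely read gene by far. It had at least 1 read in 277 cells, or 55.2% (50.7 to 59.6), and Cirbp in 63 cells, or 12.55% (9.78 to 15.8). Summed over cells and scaled to 1000000 counts on genes (CPM), Rbm3 stood at 268.4 and Cirbp at 40.4. Per kilobase of annotated exon the levels were 57.1 and 15.5 CPM per kb, a ratio of 3.68. The exons of all transcripts span 4698 bases for Rbm3 and 2604 for Cirbp, against 2792 and 1321 in the transcripts searched above. The ratio therefore depends on the length taken. That ratio varied widely between sets, from 2.17 in fresh cells of pool B and 8.58 in those of pool A to 14.1 on day 1 and 33.8 in pool C. Both genes were read in an almost all-or-none way. Cells with a read held a median of 382 counts of Rbm3 and 218.06 of Cirbp per 1000000 of their own counts (rpm), and fewer than 10 reads were present in 17 of the 277 cells with Rbm3 and 6 of the 63 with Cirbp. The 10 cells with the most reads held 55.5% of all Cirbp reads but 13.4% of Rbm3 reads, so summed Cirbp levels rest on few cells.

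A cell had between 1759 and 1895431 counts on genes, at a median of 695188, and 8 cells had fewer than 100000. The leukocyte marker Ptprc, which encodes Cd45, was read in 90.8% of cells. Markers of kidney epithelium and vessel (Umod, Slc34a1, Lrp2, Kap, Kdr, Pecam1) summed to between 0.1 and 178.3 CPM over the sets of at least 14 cells, and red cell markers to at most 5.3 CPM. Genes with a read per cell had medians of 2649 in fresh cells of pool A, 2136 after 6 h and 1731 on day 2. In pool B they were 1843 in fresh cells, 1966 on day 1, 1672.5 on day 3 and 1130 on day 4, and in the day 4 cells of pool C the median was 2987. Index pairs were reused between pools, but none occurred more than once within a pool.

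Rbm3, the gene with the stronger signal, was read in a smaller share of cells on day 3 and day 4 of pool B than in its fresh cells. Its share was the same in the fresh cells of both pools, 66.7%, with 50 of 75 cells (54.8 to 77.1) in pool A and 54 of 81 (55.3 to 76.8) in pool B. In pool B the share was 53.3% on day 1 (40 of 75 cells, 41.4 to 64.95), 32.9% on day 3 (27 of 82, 22.9 to 44.2) and 26.3% on day 4 (5 of 19, 9.15 to 51.2). The intervals of day 3 and day 4 lay wholly below that of the fresh cells, and that of day 1 overlapped it. Over all cells of pool B the share was thus lower at each later time, with overlapping intervals of day 3 and day 4. Among cells with at least 1000 genes read the difference from fresh was -9.95 percentage points on day 1, -28.4 on day 3 and -21.2 on day 4. On day 4 it was -40.4 over all cells. The smaller day 4 gap rests on few cells, since 8 of the 19 day 4 cells had fewer than 1000 genes. It does not settle the course over time. In pool A the share was 63.2% after 6 h (48 of 76 cells, 51.3 to 73.9) and 52.6% on day 2 (41 of 78, 40.9 to 63.99), and both intervals overlapped that of the fresh cells. In the day 4 cells of pool C Rbm3 was read in 10 of 14, or 71.4% (41.9 to 91.6), and in both day 4 cells of pool A, though the day 4 intervals of the pools overlapped. Fewer cells of a type and less RNA per cell cannot be told apart in a share over all cells.

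**Figure D1:**
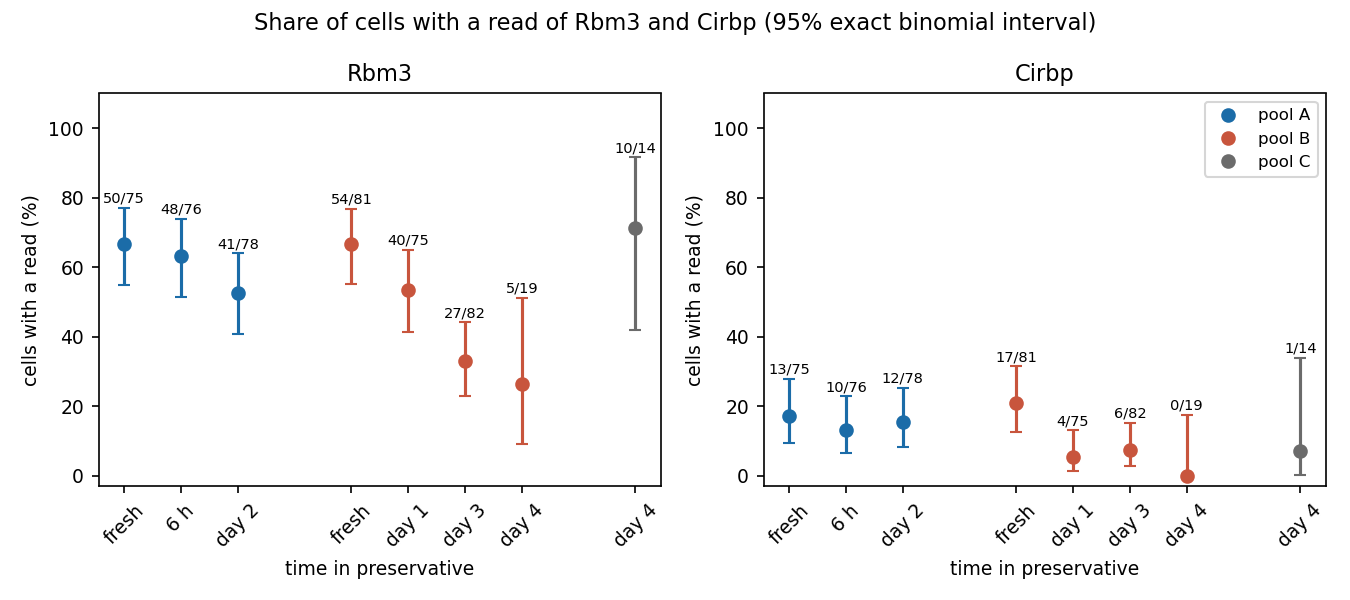
Share of cells with at least 1 read of Rbm3 (left) or Cirbp (right) by time in preservative, in percent, with points coloured by library pool and bars giving 95% exact binomial intervals. Rbm3 stands at 66.7% in both fresh sets and at 32.9% and 26.3% on day 3 and day 4 of pool B, while Cirbp stays at or below 21% everywhere.

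In pool A and on day 3, cells with Rbm3 reads held it at medians near those of fresh cells. Among cells with a read, the median was 438 rpm in fresh cells of pool A, 433 after 6 h and 453 on day 2. In pool B it was 349 rpm in fresh cells, 226.6 on day 1, 325 on day 3 and 469 on day 4, where 5 cells carried the value. The day 4 cells with Rbm3 had medians of 247.1 rpm in pool C, over 10 cells, and 247.8 in pool A, over 2 cells, below both fresh medians. Quartiles of these cells were 269.4 and 673 rpm when fresh and 191.7 and 704 rpm on day 3, so the 2 distributions lay over each other, and what differed on day 3 was the number of cells with reads. On day 1 the interval of the share overlapped the fresh one and the median was lower, with quartiles of 131.04 and 453 rpm that overlapped the fresh ones. The mix of cell types also differed between day 1 and fresh cells, and its part in the lower median was not tested.

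**Figure D2:**
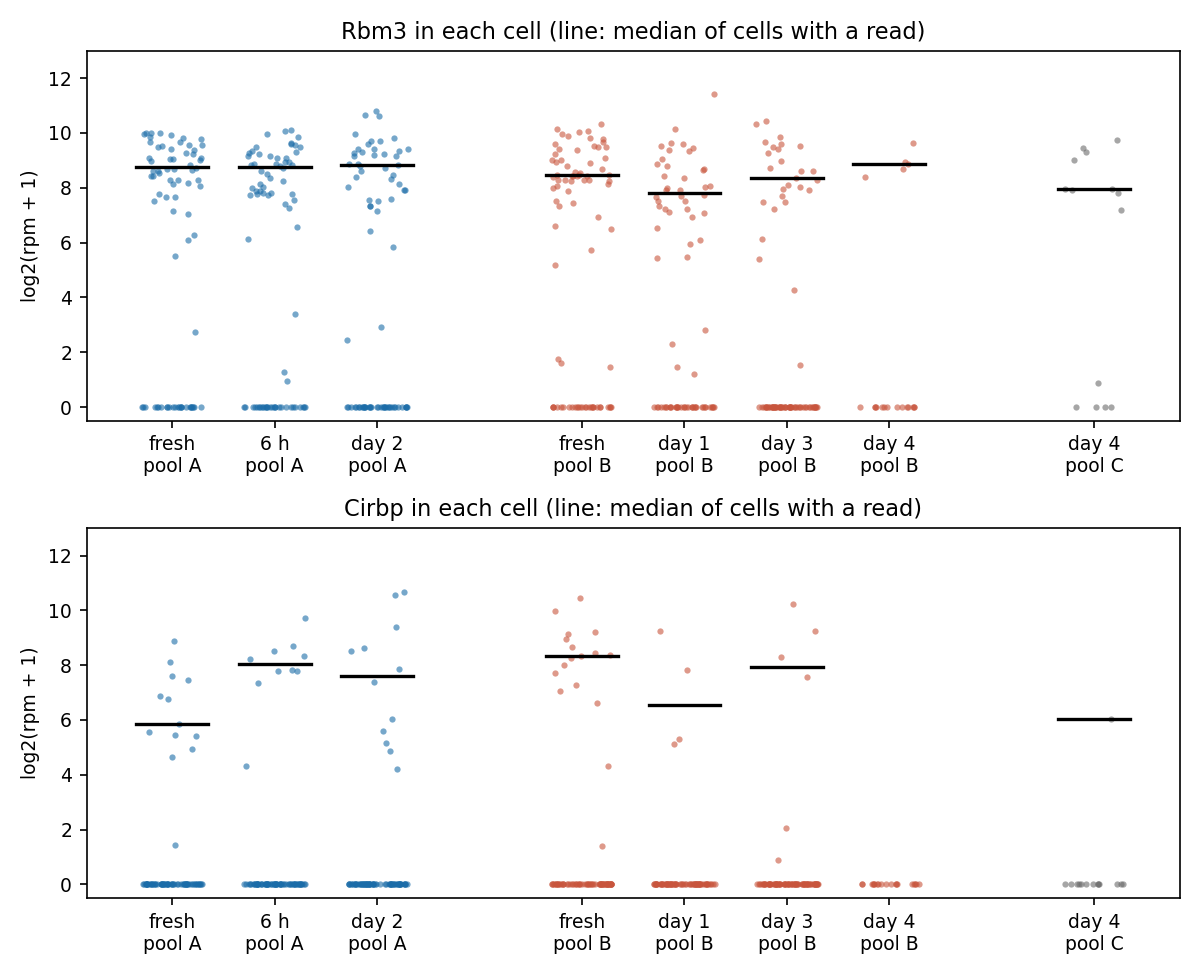
Level of Rbm3 (top) and Cirbp (bottom) in each cell as log2(rpm + 1), by time and library pool, with a black line at the median of the cells with a read. Most cells lie either at 0 or above 4, and the median line of Rbm3 stays near 8 to 9 while the cells at 0 become more numerous on day 3 and day 4 of pool B.

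Summed over all cells of a set, Rbm3 was below fresh at each preserved timepoint compared. The sum was 356 CPM in fresh cells of pool A, 292 after 6 h and 285 on day 2, which gave log2 ratios of -0.28 and -0.32. In pool B it was 315 CPM fresh, 153.7 on day 1, 168.2 on day 3 and 131.02 on day 4, with log2 ratios of -1.04, -0.91 and -1.27. The 2 fresh sets differed by a log2 ratio of -0.18 (pool B over pool A), so the ratios of both pools were larger in size than that gap, those of pool A by less. A level at least 2-fold lower was reached on day 1 and day 4, but not under each setting. The day 1 ratio was -0.96 with TMM scaling, -0.97 with DESeq2 size factors and -0.65 as a ratio of mean rpm, and the day 4 ratio was -0.64 in cells with at least 1000 genes read, while the day 3 ratio reached -1.05 as a ratio of mean rpm. Among all genes tested, those with at least 100 counts over both sums and a read in at least 10% of cells, 18% were at least 2-fold lower on day 1 (15.9% higher), 19.9% on day 3 (16% higher) and 47.8% on day 4 (17% higher), so ratios of this size were common. On day 4 the median log2 ratio of all genes was itself -0.84, and 44% of genes lay lower than Rbm3, compared with 17.1% on day 1 and 22.3% on day 3.

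Cirbp was read in too few cells to give a stable summed level, and its direction differed between pools. In fresh cells it was read in 13 of 75 cells of pool A, or 17.3% (9.57 to 27.8), and in 17 of 81 of pool B, or 21% (12.7 to 31.5). The share was 13.2% after 6 h (10 of 76), 15.4% on day 2 (12 of 78), 5.33% on day 1 (4 of 75), 7.32% on day 3 (6 of 82) and 0 of 19 cells on day 4, which allows a share of up to 15.8% when 3 cells are taken as the floor, with an exact upper limit of 17.6%. One of the 14 day 4 cells of pool C held Cirbp, and neither of the 2 of pool A. All 5 shares compared were below the fresh share of their pool, yet each interval overlapped the fresh one; the interval of day 1, 1.47 to 13.1, met that of its fresh cells only at its upper end.

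The summed Cirbp level was 23 CPM in fresh cells of pool A, 43.6 after 6 h and 59 on day 2, with log2 ratios of 0.92 and 1.36. In pool B it was 80.4 CPM in fresh cells, 6.06 on day 1 and 37.7 on day 3, with log2 ratios of -3.73 and -1.09. On day 4 no read was found in 19 cells, at least 222.6-fold lower than fresh in these reads when 3 counts over the set are taken as the floor. That floor covers counting of reads and not the sampling of cells, and since cells with Cirbp held many reads each, a few such cells among 19 could have been missed, so it does not limit the level of Cirbp in day 4 cells. The fresh cells of the 2 pools differed by a log2 ratio of 1.80 with no preservation between them, a gap larger than the differences after 6 h, day 2 and day 3. Genes at least 2-fold higher made up 15.3% of those tested after 6 h and 20.9% on day 2, with 11.6% and 17.9% lower, and between the fresh sets 22.7% were higher and 21.6% lower. A single cell held 36.6% of the Cirbp reads after 6 h, 29% on day 2, 81.5% on day 1, 60.7% on day 3, and 25.2% and 27.4% in the fresh cells of pools A and B. Without the top cell of each set the ratio was -5.70 on day 1 and -1.97 on day 3. With each cell weighted alike on the log2(rpm + 1) scale the 6 h difference was -0.02, and against all fresh cells the 6 h ratio was -0.20, so that the direction after 6 h depended on the summary.

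**Figure D3:**
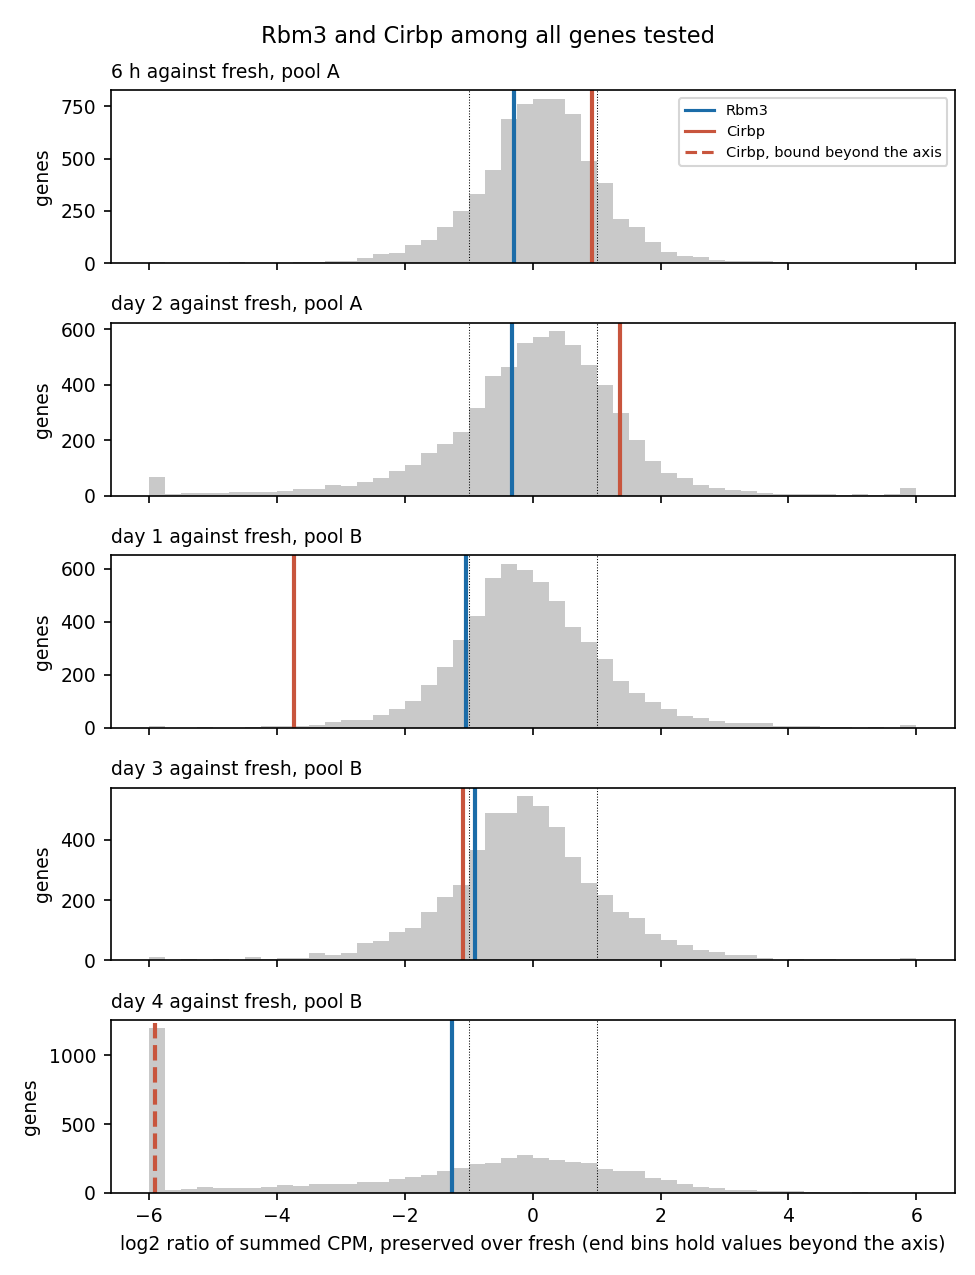
Number of genes by log2 ratio of summed CPM, preserved over fresh cells of the same pool (grey bars of width 0.25, dotted lines at 2-fold), with the values of Rbm3 (blue) and Cirbp (red; dashed where it is set by the floor of 3 counts, beyond the axis). Rbm3 lies left of 0 in each panel and within the bulk of genes, while Cirbp lies at 0.92 and 1.36 in pool A and at -3.73 and -1.09 in pool B.

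Among the gates, set at 10 reads, Rbm3 was read least often in S100a8+ cells, and the order of the others differed between fresh cells and all cells. Cells were gated by at least 10 reads of exactly one of Cd3e (part of the T cell receptor complex), Cd79a (of the B cell receptor), C1qb (complement C1q of tissue macrophages) and S100a8 (a neutrophil and monocyte protein), or by Csf1r, the receptor of the macrophage growth factor, with none of these. In each of the 5 gates all 5 further markers of its type were read in at least 25% of cells. The B cell gene Ighm was also read in 81.5% of C1qb+, 44.3% of Cd3e+, 33.3% of Csf1r+ C1qb- and 31.9% of S100a8+ cells. The neutrophil marker Csf3r was read in 52.8% of Csf1r+ C1qb- cells, and the T cell marker Cd3d in 31.9% of S100a8+ cells. The part of such reads in the values of the gates was not tested. Among fresh cells Rbm3 was read in 13 of 16 Cd79a+ cells (81.3%, 54.4 to 95.95), 37 of 53 Cd3e+ cells (69.8%, 55.7 to 81.7), 23 of 33 Csf1r+ C1qb- cells (69.7%, 51.3 to 84.4), 10 of 15 C1qb+ cells (66.7%, 38.4 to 88.2) and 8 of 21 S100a8+ cells (38.1%, 18.1 to 61.6), and all of these intervals overlapped. Over fresh and preserved cells together, which gates hold in unlike parts, it was read in 71 Cd3e+ cells (67%, 57.2 to 75.8), 45 of 72 Csf1r+ C1qb- cells (62.5%, 50.3 to 73.6), 40 of 74 Cd79a+ cells (54.1%, 42.1 to 65.7), 58 C1qb+ cells (46.8%, 37.8 to 55.9) and 16 of 47 S100a8+ cells (34%, 20.9 to 49.3). Over all cells the interval of Cd3e+ cells lay above those of C1qb+ and S100a8+ cells, and that of Csf1r+ C1qb- cells above that of S100a8+ cells, but most C1qb+ cells were preserved ones, and among fresh cells alone these intervals overlapped. With gates at 1 read the shares over all cells were 44.8% in S100a8+, 45% in C1qb+ and 59% in Csf1r+ C1qb- cells. At 50 reads they were 33.3%, 46.3% and 68.1%, so the gap of S100a8+ cells from the others depended on the threshold. S100a8+ cells also had the fewest genes read, with a median of 1091, compared with 1842.5 in Cd3e+ cells. Within the S100a8+ gate, cells with Rbm3 had a median of 3193.5 genes and those without it 1002.

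Over all cells Cirbp was read in 21 Cd3e+ cells (19.8%, 12.7 to 28.7), 11 of 72 Csf1r+ C1qb- cells (15.3%), 11 of 74 Cd79a+ cells (14.9%), 9 C1qb+ cells (7.26%, 3.37 to 13.3) and 3 of 47 S100a8+ cells (6.38%). Neighbours in this order overlapped in their intervals, as did Cd3e+ and C1qb+ cells. Summed levels were 76.6 CPM in Cd3e+, 61.5 in Cd79a+ and 14.3 in C1qb+ cells, and among fresh cells alone 104.4, 70.5 and 21.5 CPM. In Csf1r+ C1qb- cells the cells with a read held little, a median of 47.7 rpm against 322 rpm in Cd3e+ cells.

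**Figure D4:**
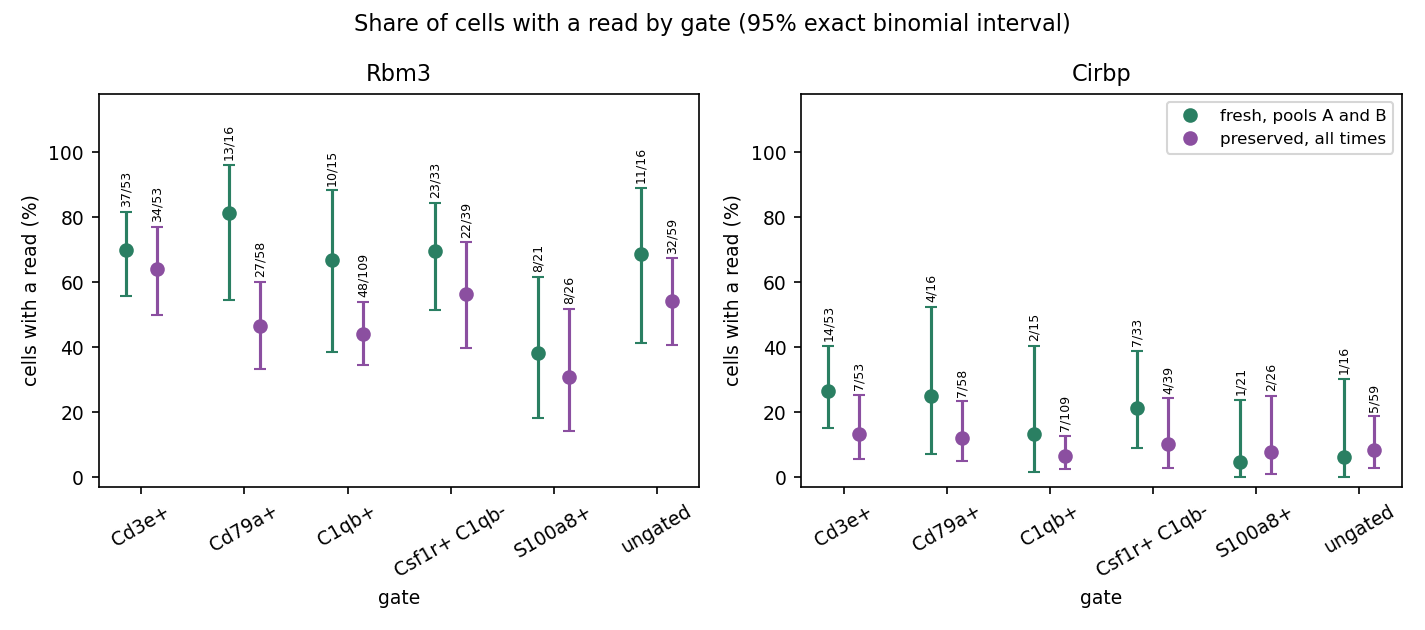
Share of cells with a read of Rbm3 (left) and Cirbp (right) in each gate, in percent, for fresh cells of pools A and B (green) and all preserved cells (purple), with 95% exact binomial intervals and cell numbers above. Rbm3 lies lower in preserved than in fresh cells in each gate, with overlapping intervals, and S100a8+ cells lie lowest among fresh cells.

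The mix of gates differed between the sets, and in pool B it moved together with preservation time. C1qb+ cells were 8 of 81 fresh cells, 22 of 75 on day 1, 54 of 82 on day 3 and 10 of 19 on day 4. Cd3e+ cells were 44 of 81, 7 of 75, 7 of 82 and 0 of 19. Whole marker lists moved likewise. The summed CPM of the T list (Cd3d, Cd3g, Lck, Lat, Trac) was 2797 in fresh cells, 478 on day 1, 415 on day 3 and 73 on day 4, with 3 of 5 markers at 0 there, and that of the C1q list (C1qa, C1qc, Apoe, Cd68, Adgre1) was 2620, 4606, 10941 and 15180. In pool A fresh cells held 0 Cd79a+ cells and day 2 held 29 of 78. The 2 fresh sets were themselves unlike, with 9 of 75 and 44 of 81 Cd3e+ cells and 21 of 75 and 0 of 81 S100a8+ cells.

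The fresh share of each gate was also weighted by the gate numbers of the preserved set, a calculation added after the data were seen. At the day 3 mix, fresh cells of pool B would give a Rbm3 share of 54.8%, compared with 66.7% as measured in them and 32.9% (22.9 to 44.2) in the day 3 cells. At the day 4 mix they would give 57.2%, compared with 26.3% (9.15 to 51.2), and at the day 1 mix 60.7%, compared with 56.5% (44.04 to 68.4) over the 69 cells in gates that fresh cells also filled. For Cirbp the day 3 mix gave 5.49%, inside the interval of the 7.32% measured, and the day 1 mix gave 11.6% compared with 5.80%. In pool A, where 29 day 2 cells fell in the gate that fresh cells lacked, the other 49 gave a Rbm3 share of 55.1% (40.2 to 69.3), and the fresh shares at their mix 82.3%. These weighted shares rest on few fresh cells, 8 of them C1qb+ in pool B and 7 in pool A, and their own error is not in the intervals, so the part of the cell mix in the lower shares cannot be told apart from that of preservation.

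Within single gates few sets were large enough to compare. In C1qb+ cells of pool B Rbm3 was read in 4 of 8 fresh cells, 16 of 22 on day 1 (72.7%), 19 of 54 on day 3 (35.2%) and 1 of 10 on day 4. The summed Rbm3 level of these cells was 139.6 CPM when fresh, 221.6 on day 1, 137.9 on day 3 and 45.6 on day 4, with log2 ratios of 0.67, -0.02 and -1.61, so the day 1 and day 3 ratios of the whole sets were not seen in this gate. On day 1 the ratio was -1.96 in Cd79a+ cells and -1.55 in cells of no gate, and on day 3 it was -0.08 in cells of no gate. The share of C1qb+ cells with Rbm3 was above the fresh one on day 1 and below it on day 3 and day 4, with all intervals overlapping the fresh interval. In Cd79a+ cells of pool B the share was 13 of 16 when fresh and 5 of 14 on day 1. Cd3e+ cells of pool A held Rbm3 in 8 of 9 fresh cells, 14 of 20 after 6 h and 10 of 16 on day 2. Csf1r+ C1qb- cells of that pool gave 21 of 29 fresh and 12 of 14 after 6 h, the other comparison, with that of C1qb+ cells on day 1, in which the preserved share was above the fresh one. S100a8+ cells gave 8 of 21 fresh and 5 of 16 after 6 h. For Cirbp no within-gate set of preserved cells held more than 4 cells with a read, and Cd79a+ cells of pool B held it in 4 of 16 fresh cells and 0 of 14 on day 1.

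Rbm3 was read more often in cells with more genes read, in fresh and preserved cells alike. It was read in 0 of 6 fresh and 4 of 41 preserved cells with fewer than 1000 genes, and in 93.3% and 93.5% of those with 3000 genes or more. Between 1000 and 2000 genes, the share in pool B was 62.3% in fresh cells (33 of 53, 47.9 to 75.2), 33.3% on day 1 (11 of 33, 17.96 to 51.8), 27.3% on day 3 (12 of 44, 14.96 to 42.8) and 40% on day 4 (4 of 10, 12.2 to 73.8). The day 3 interval lay below the fresh one in this bin, in which the mix of gates was not held fixed. Between 2000 and 3000 genes the shares were 75% in fresh cells, 78.6% on day 1 and 54.5% on day 3, with overlapping intervals. In pool A no such gap was seen between 1000 and 2000 genes, with 8 of 19 fresh cells, 10 of 25 after 6 h and 29 of 54 on day 2. Over 24 sets of at least 8 cells, each a gate at 1 timepoint in 1 pool, the mean log2(rpm + 1) of Rbm3 had a Pearson correlation of 0.66 with the median gene number (Spearman 0.67), and that of Cirbp 0.18 (Spearman 0.22). These sets share depth and library, so the values are descriptions.

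**Figure D5:**
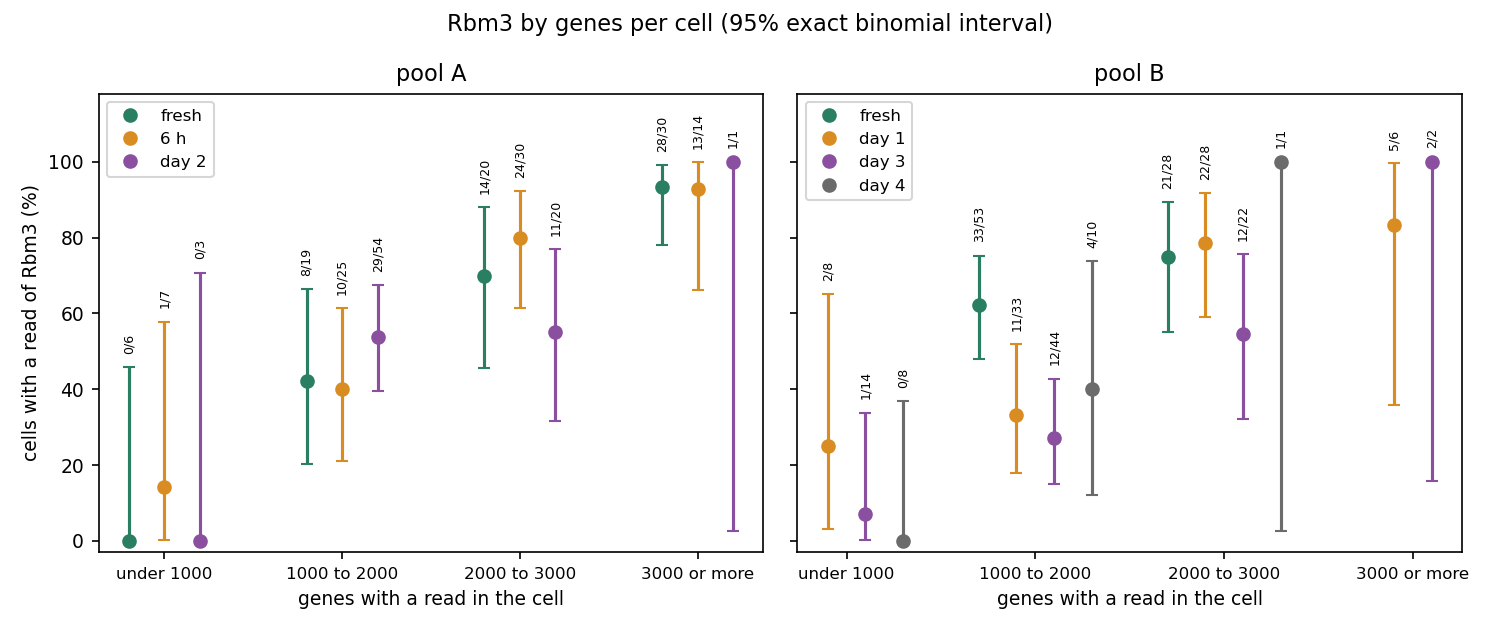
Share of cells with a read of Rbm3, in percent, by the number of genes read in the cell, for pool A (left) and pool B (right), with 95% exact binomial intervals and cell numbers above. In the bin of 1000 to 2000 genes of pool B, 33 of 53 fresh cells and 12 of 44 day 3 cells held Rbm3.

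Over all cells, Rbm3 was read more often in cells with Cirbp than in those without it, but not in every gate. Both were read in 45 cells and Cirbp without Rbm3 in 18. Rbm3 was read in 71.4% of cells with Cirbp (58.7 to 82.1) and in 52.8% of those without it (48.1 to 57.6). Cells with Cirbp had a median of 2138 genes and those without it 1852, and the part of gene number in the co-detection was not tested. In Cd3e+ cells the shares were 71.4% and 65.9%, and in fresh cells 70% and 65.9%, with overlapping intervals in both. In preserved cells they were 72.7% (54.5 to 86.7) and 47.6% (41.96 to 53.3), which did not overlap, in C1qb+ cells 77.8% and 44.3%, and in Cd79a+ cells 72.7% and 50.8%. In Csf1r+ C1qb- cells the order was the other way, with 54.5% of 11 cells with Cirbp and 63.9% of the others, and in S100a8+ cells the shares were 33.3% and 34.1%, the first of 3 cells. The Pearson correlation over all cells was 0.12 (Spearman 0.13), a weak value in sparse counts. Over the 24 sets the means of the 2 genes had a Pearson correlation of 0.64, which placed Rbm3 19th among 3228 genes by likeness to Cirbp, while far more genes lay above Cirbp by likeness to Rbm3.

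Genes with a pattern over the 24 sets most like that of Cirbp were Ms4a4b (Pearson 0.71), Gramd3 (0.70), Rbck1 (0.70), Sipa1 (0.69) and Bcl2 (0.68), where Ms4a4b is a T cell membrane protein and Bcl2 a guard against apoptosis. Those most like Rbm3 were Rbck1 (0.85), Irf3 (0.81), Hadha (0.81), Eif3k (0.81) and Ndufb5 (0.80), which include a subunit of the ubiquitin ligase for linear chains, an interferon regulatory factor, an enzyme of fatty acid oxidation, a translation initiation factor subunit and a subunit of respiratory complex I. Rbck1 was on both lists. Over the same sets Rbm3 had a Pearson correlation of 0.66 with the median gene number, and the sets differ in cell type, pool and time. The part of these in the likenesses was not tested.

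Most other RNA binding proteins of related build or cold response lay within 2-fold of fresh in each comparison. The list held 14 genes, among them Ybx1 with a cold shock domain and members of the hnRNP and SR families. Of 14 tested, 0 were at least 2-fold higher and 2 lower after 6 h (median log2 ratio -0.05), 2 higher and 4 lower on day 2 (-0.33), and 1 higher and 0 lower on day 1 (-0.10). On day 3, 1 of 13 was higher and 0 lower (median 0.03), and on day 4, 2 were higher and 3 lower (-0.20). Among all genes tested, 15.3% were higher and 11.6% lower after 6 h, 20.9% and 17.9% on day 2, 15.9% and 18% on day 1, 16% and 19.9% on day 3, and 17% and 47.8% on day 4, so most of these counts lay near or under the share of all genes. The medians of all genes were 0.13, 0.13, -0.12, -0.12 and -0.84 in the same order. Hnrnpa2b1, a nuclear RNA binding protein, was read in 91.4% of fresh cells of pool B and 87.8% on day 3, and Ybx1 in 79% and 75.6%, while Rbm3 went from 66.7% to 32.9%. Srsf3, a splicing factor of the SR family, was read in 76.5% and 56.1%, and Hnrnpa1 in 53.1% and 36.6%, so a lower share was not seen in Rbm3 alone. A further list held 7 regulators of the splicing, transcription or transport of the pair, of which Clk1, a kinase of SR proteins, was at log2 ratios of 0.79 after 6 h, 1.46 on day 2, 0.66 on day 1 and -0.01 on day 3. Over this list 2 genes were higher and 1 lower after 6 h, 2 and 1 on day 2, 1 and 0 on day 1, 1 and 2 on day 3, and 2 and 2 on day 4. With 7 genes tested after 6 h and 6 at the other times, these counts are too small to set against the shares of all genes just given.

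Receptors of CIRBP outside cells were read in fewer cells on day 2 than in fresh cells of pool A. Trem1 and Tlr4 were read in 42.7% and 22.7% of fresh cells of pool A and in 2.56% and 6.41% on day 2, with log2 ratios of -7.23 and -2.62, while monocyte and neutrophil marker sums were also lower there, with 2136 and 242.025 CPM against 10002 and 5133 CPM. The part of cell mix in that difference was not tested. Ly96, the partner of Tlr4, was read in 13.3% and 3.85% of these cells and did not pass the filter on day 2, and none of the 3 receptors passed it in pool B. There the order was the other way on day 1, with Trem1 read in 3.70% of fresh and 14.7% of day 1 cells and Tlr4 in 4.94% and 14.7%. Of the transcripts CIRBP is known to bind, Txn1 (thioredoxin) was at -0.94 after 6 h and -2.23 on day 2, and at 1.12, 0.96 and 1.44 on day 1, day 3 and day 4. Rpa2, of the replication protein A complex, ranged from -0.23 to 0.76, and Clock was at 0.33, -0.44 and -0.62 after 6 h, day 2 and day 1 and was not tested later.

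Of the heat shock genes, the Hspa1 pair was higher than fresh at each preserved timepoint. Hspa1a, an inducible Hsp70 chaperone, had a summed level of 27.1 CPM in fresh cells of pool B, 673 on day 1, 1107 on day 3 and 465 on day 4, and of 62.9 CPM in fresh cells of pool A, 142.2 after 6 h and 694 on day 2. Its log2 ratios were 1.18 after 6 h, 3.46 on day 2, 4.64 on day 1, 5.35 on day 3 and 4.10 on day 4, and that of 6 h lay within the gap of -1.21 between the 2 fresh sets (pool B over pool A). Hspa1b, a near-identical copy whose reads may be split with it, gave 1.09, 3.38, 4.90, 5.53 and 4.76, with a gap of -2.61 between the fresh sets. Hspa1a was read in 12.3% of fresh cells of pool B and in 61.3% on day 1 and 53.7% on day 3. Of the 11 genes on the list, 4 were at least 2-fold higher and 0 lower after 6 h, 5 and 1 on day 2, 4 and 0 on day 1, 2 and 0 on day 3, and 2 and 3 on day 4, with median log2 ratios of 0.48, 0.45, 0.68, -0.24 and -0.11. Set against the 15.3%, 20.9%, 15.9%, 16% and 17% of all genes that were higher, the 2 of 11 of day 3 and day 4 are about that share. Of all genes 11.6%, 17.9%, 18%, 19.9% and 47.8% were lower in the same order, so the 3 of 11 lower on day 4 lie under that share. On day 3 the Hspa1 pair alone passed 2-fold, and Hspa8, the constitutive Hsp70, was at 0.43.

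Intervals of the Rbm3 share overlapped between cells with and without Hspa1a in each set. On day 3 Rbm3 was read in 16 of 44 cells with Hspa1a (36.4%, 22.4 to 52.2) and in 11 of 38 without it (28.9%, 15.4 to 45.9), and on day 1 in 28 of 46 (60.9%) and 12 of 29 (41.4%), while on day 2 the order was the other way, with 19 of 38 (50%) and 22 of 40 (55%). Over all cells the shares were 59.3% of cells with Hspa1a and 52.6% of those without it, with overlapping intervals. Cells with Hspa1a had a median of 1971 genes on day 3 and those without it 1198.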

How the data were processed

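Single Cd45+ cells were sequenced by an adapted SmartSeq2 protocol, with libraries made for cells yielding more than 2 ng of cDNA. The authors trimmed reads to 75 bases, removed duplicates with picard, aligned to GRCm38 with STAR and counted with HTSeq (intersection-strict, no strand). Tool versions and the Ensembl release were not given in the sources used here. Deposited values were raw counts per gene in 502 cells. Cells under 1000 reads had been dropped by the authors. The 97 rows of spike-ins and a vector (0.14% of counts) were left out, and the 18S row (6.60%) was kept. Depth per cell on genes was 1759 to 1895431 counts.

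Counts were expressed per 1000000 counts on genes, per cell (rpm) or summed over a set (CPM). Shares have exact Clopper-Pearson intervals and sums exact Poisson intervals, at 95%. A fold was called past 2-fold among genes with at least 100 counts over both sums and a read in at least 10% of cells, with a prior count of 1. Within-gate comparisons needed 8 cells per set. Each timepoint was treated as 1 sample, since no label names the mouse of a cell, so no test was run. The methods' tests over cells were not repeated. Cell numbers in gates follow 10 reads of the gate gene, and doublets were not called beyond setting 4 mixed cells apart. Likest genes were the 5 with the highest correlation among those read in at least 20% of cells. Named genes are the members, the genes of the lists and these likest genes. The members and lists were chosen with earlier results of these data known. Scripts were tested on simulated data. Alternatives were thinning to 100000 counts, 10 reads for detection, all fresh cells as reference, cells with at least 1000 genes, TMM (edgeR 4.0.16), DESeq2 1.42.0 size factors, totals without 18S, other summaries, gate thresholds of 1 and 50 reads, and no filter. Python 3.11.15, scipy 1.17.1 and R 4.3.3 were used.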

Additional observations from a re-analysis of the deposited data

Results flagged for a closer look

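Cirbp was flagged because its summed level lay above fresh in both preserved sets of pool A that were compared and below fresh in all 3 of pool B. The log2 ratios were 0.92 after 6 h and 1.36 on day 2 in pool A, and -3.73 on day 1, -1.09 on day 3 and -7.80 on day 4 in pool B, the last set by a floor of 3 counts, which covers counting of reads and not the sampling of 19 cells. This difference between pools was not tested, each timepoint being treated as 1 sample, and pool and preservation time cannot be told apart. The 2 day 4 cells of pool A held no read of Cirbp and entered no comparison. The fresh Cirbp levels of the pools were 23 and 80.4 CPM, and the share of cells with a read was below fresh at each of the 5 timepoints, though on day 3 it lay 1.83 points above the fresh shares weighted by the preserved gate mix.

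The day 4 cells of pool C have no fresh cells of their pool and entered no comparison. Their summed levels were 5.51 CPM of Cirbp, from 1 cell of 14, and 336 CPM of Rbm3, from 10 cells of 14. The Rbm3 level lay between those of the fresh sets, 315 and 356 CPM, and above the 131.02 CPM of the day 4 cells of pool B. These 14 cells had a median of 2987 genes and the 19 day 4 cells of pool B a median of 1130, and the part of that gap in the difference was not tested.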

How the results depend on the processing

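No paired analysis was possible because the labels number no replicates and no result comes from a test. No alternative turned the direction of a value past 2-fold, but several brought one below 2-fold, among them those of Rbm3 on day 1, at -0.96 with TMM, -0.97 with DESeq2 size factors and -0.65 as a ratio of mean rpm, and of Cirbp at 0.87 on day 2 and -0.90 on day 3 in cells with at least 1000 genes, beside the values under 1 given next. The share of cells with a read kept its sign in 20 of 20 alternatives for each gene (for Rbm3 on day 4 the difference was -21.2 points in cells with at least 1000 genes), and summed ratios did so in 40 of 40 for Rbm3 and 37 of 39 for Cirbp. The exceptions were 6 h for Cirbp, -0.020 as a difference of mean log2(rpm + 1) and -0.20 against all fresh cells. With mean log2 values, Cirbp was at 0.087 on day 2, -1.27 on day 1 and -1.63 on day 4, and Rbm3 at -1.29 on day 2, -2.80 on day 3 and -3.12 on day 4. This scale counts cells at 0 more heavily by construction. Against all fresh cells Cirbp was at 0.23 on day 2, -3.05 on day 1, -0.41 on day 3 and -7.12 on day 4. Without the top cell of each set it was at -5.70 on day 1 and -1.97 on day 3, and as a ratio of mean rpm at -2.77 on day 1. With cells of at least 1000 genes, day 4 was at -7.17 for Cirbp and -0.64 for Rbm3. The day 4 summed ratios of Cirbp rest on the floor of 3 counts, while its day 4 difference of mean log2(rpm + 1) does not. Its day 4 ratio of mean rpm could not be given. Weighting fresh shares by the preserved gate mix, added after the data were seen, gave differences of -5.80 points on day 1 and 1.83 on day 3 for Cirbp, which changed sign there, and of -27.2 on day 2 and -21.9 on day 3 for Rbm3. Without a filter on low counts, genes at least 2-fold higher and lower numbered 4663 and 4165 after 6 h, 5096 and 5072 on day 2, 5097 and 4273 on day 1, 4392 and 5178 on day 3, and 2656 and 8601 on day 4, since far more genes were then counted. Cirbp values rest on 63 cells with a read.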
